A study of Mus musculus with 6 samples.

Results

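Ion channels and aquaporins of the embryonic mouse kidney were taken as the genes whose symbol begins with Kcn (potassium channels), Clcn (chloride channels and exchangers), Scn (sodium channels), Cacn (calcium channels) or Aqp (aquaporins). There were 73 such genes among 8251 genes with a probe set of a single gene symbol, and they were measured by 94 of 10833 such probe sets. Where a gene had several probe sets, the brightest (highest mean log2 signal over the 6 arrays) stood for it. The set held 42 potassium channel genes, 6 chloride, 6 sodium and 12 calcium channel genes, 6 aquaporins, and Scnm1. Scnm1 has the sodium channel stem by name but encodes a splicing factor, not a channel, so the label fits 72 of the 73 genes.

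RNA of whole E14.5 mouse kidneys was hybridised to 6 Affymetrix MG_U74Av2 arrays (1 colour) in a search for genes of the renal vesicle, the first epithelial stage of the nephron, and of the structures it gives rise to. The 4 wild-type samples are labelled strain CD-1, and each pooled 2 kidneys. The 2 mutant samples carry the Wnt4tm1Amc allele, are labelled strain 129, and each pooled 8 to 10 kidneys from 4 to 5 embryos, although the protocol text given for all 6 samples speaks of CD-1 matings. Genotype, strain label and pool size cannot be told apart. The labels do not state the zygosity. Wnt4 loss is known to block the renal vesicle and its derivatives. The mutant kidney is therefore taken to lack nephron epithelium and to keep ureteric bud, stroma, vessels and mesenchyme. In whole organs, fewer cells of a type and less RNA per cell cannot be told apart. Nothing says that the wild-type pools came from separate litters, so the p-values measure only the spread between these samples.

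Ion channels are membrane proteins that let ions pass down their electrochemical gradient, and aquaporins do the same for water. In the mature kidney, potassium channels of the tubule recycle potassium for the salt transporters, chloride channels and endosomal chloride-proton exchangers serve salt and protein uptake, and aquaporins carry the water that follows. Voltage-gated sodium and calcium channels belong mainly to nerve and muscle.

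The Wnt4 probe set, on which the labels can be checked, had signals of 829, 739, 946 and 699 in the wild type and 74.2 and 34.5 in the mutant (difference on the log2(signal + 16) scale, mutant minus wild type, -3.59 ± 0.24 SE). The kidney progenitor markers Six2 and Wt1 had signals of 2457 to 2925 and of 753 to 1204 over the 6 arrays. Pax2, looked up with them, was dimmer, with signals of 78.7 to 277.5. The first principal component of the kept probe sets (44.3% of the variance) separated the genotypes. The second (21.7%) set wild-type arrays 2 and 4 apart on opposite sides of the others.

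Most channel and aquaporin genes gave low signals at this stage. The median signal of an array lay between 173 and 191. Of the 73 genes, 11, 14, 11 and 12 were above that median on wild-type arrays 1 to 4, and 16 were above it on each mutant array, which is 15.1% to 21.9% of them. Over all genes measured, 59.2% to 59.7% were above it. Of the channel genes, 7 exceeded the median on all 6 arrays (9.59%, against 52.2% of all genes): Clcn3, Clcn4, Clcn5, Clcn7, Kcnj9, Kcnk1 and Kcnh2. Another 53 exceeded it on none (72.6%, against 33.8% of all genes), and the other 13 on 1 to 5 arrays. By group mean, 12 genes were above it in wild-type kidneys and 18 in mutant kidneys, 11 of them in both. These counts depended on the median used. Against the median over single-symbol probe sets they were 9 and 10, and against the median over 1 probe set per gene 7 and 7. By group mean against the array median, Kcnn1 was above in the wild type only. Cacnb2, Cacna1b, Cacna1g, Scnm1, Kcnk2, Kcnk7 and Kcnq1 were above in the mutant only. Counted by array, Kcnn1 was also above it on 1 mutant array. Cacna1b, Scnm1, Kcnk2, Kcnk7 and Kcnq1 were each above it on 1 wild-type array, and Cacnb2 and Cacna1g on 1 mutant array only. The count by group mean was not made over all genes. The median array percentile of the 73 genes was 30.1, with chloride genes highest (67.3), then aquaporins (31.0), potassium (29.7) and calcium genes (29.5), and sodium channels lowest (12.8). Probe sets differ in how brightly they bind, so a low signal is not proof of a low RNA level, and no level is compared between single genes here.

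**Figure D1:**
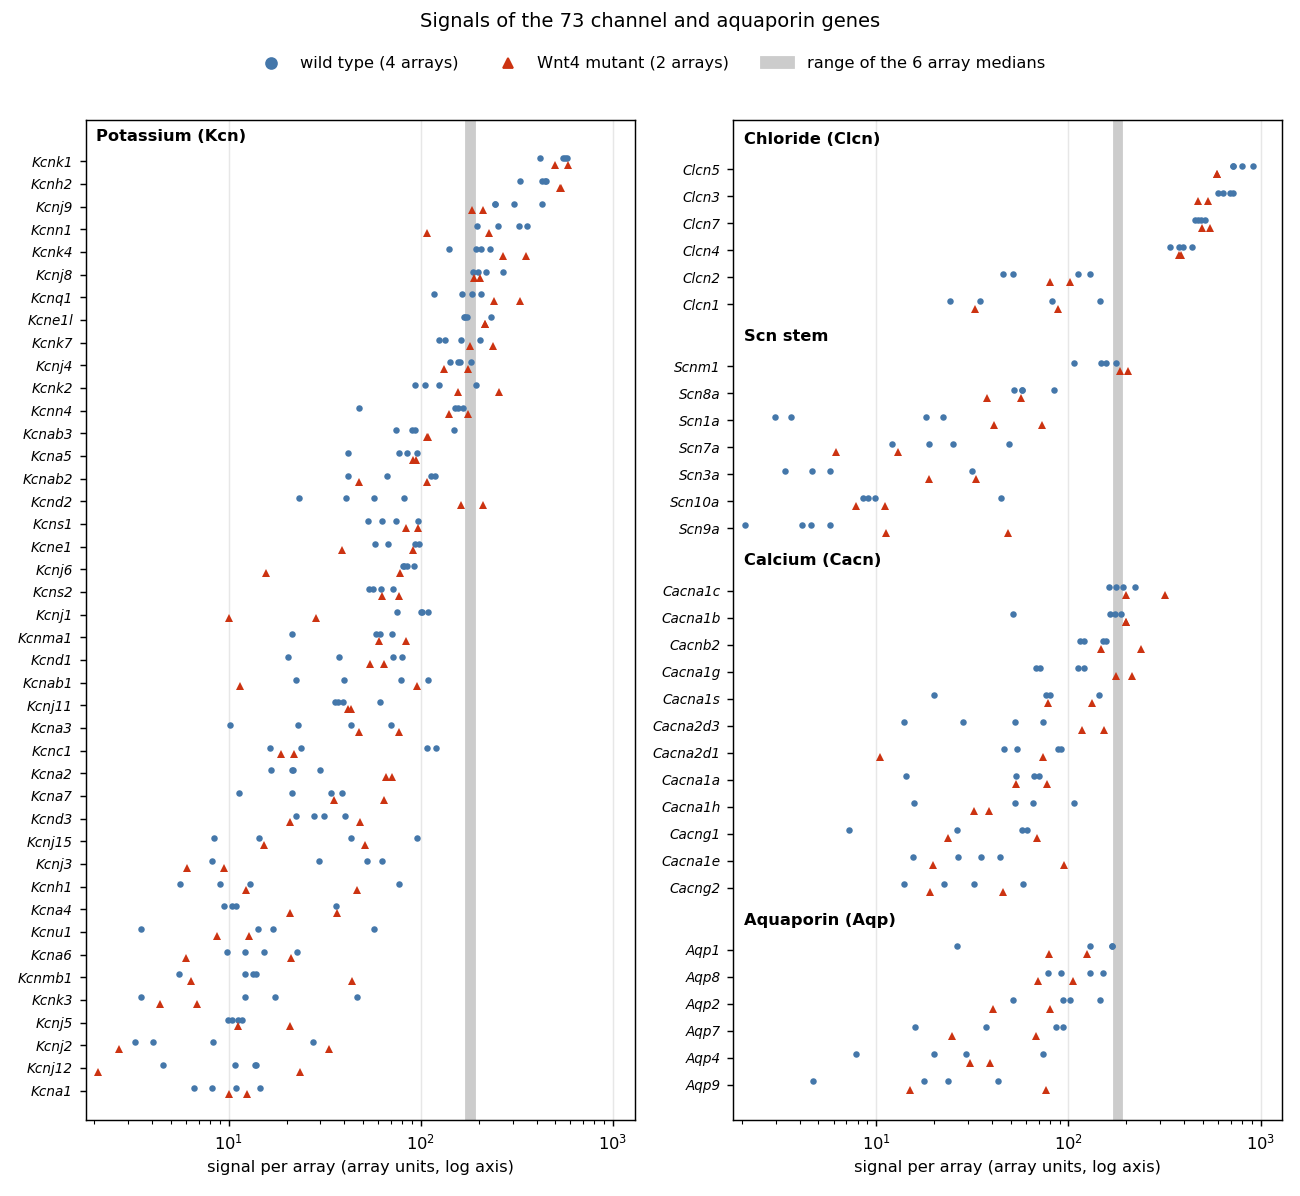
Signal of the 73 channel and aquaporin genes on each array (log axis), by family, with circles for the 4 wild-type arrays, triangles for the 2 mutant arrays and a grey band for the range of the array medians. 4 of the 6 chloride genes lie above the median on all arrays, while the 6 sodium channels and 6 aquaporins lie below it on all of them.

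No channel or aquaporin gene passed the test between genotypes. A gene was tested where 2 or more arrays gave it a signal over the array's 40th percentile, which held for 30 of the 73 genes. Of the 30, 2 passed this filter through mutant arrays only (Kcnd2 and Cacna2d3) and 4 through wild-type arrays only (Aqp8, Clcn2, Kcnab2 and Kcnc1). Of these 30, 0 were lower and 0 higher in the mutant at an adjusted p under 0.05 (limma, Benjamini-Hochberg over all 7981 probe sets kept), against 11.5% of all 6081 genes tested (6.35% lower, 5.13% higher). At an unadjusted p under 0.05 there were 10 of the 30 (4 lower and 6 higher), which is 33.3% against 28.2% of all genes. For 11 of the 30, or 36.7%, the mutant signals did not overlap the wild-type range, against 39.1% of all genes. Of these, 3 were below it (19.9% of all genes) and 8 above it (19.3% of all genes). The shares outside the range and at the unadjusted p are thus near the background. The tested channel genes were dimmer than the other genes tested, with a median signal of 163 against 506 over all 6081 genes, and the share of genes called depended on signal. It was 4.32% of all genes below the array median (17 of the channel genes), 8.61% between 1 and 2 medians (7 genes) and 14.7% above 2 medians (6 genes). The median difference was 0.20 for the 30 genes and 0.01 for all genes (0.39 for the channel genes without wild-type array 2), and the median size of a difference was 0.39 against 0.23. All 43 genes left untested were above the median on no array, with signals between 2.08 and 147.

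**Figure D2:**
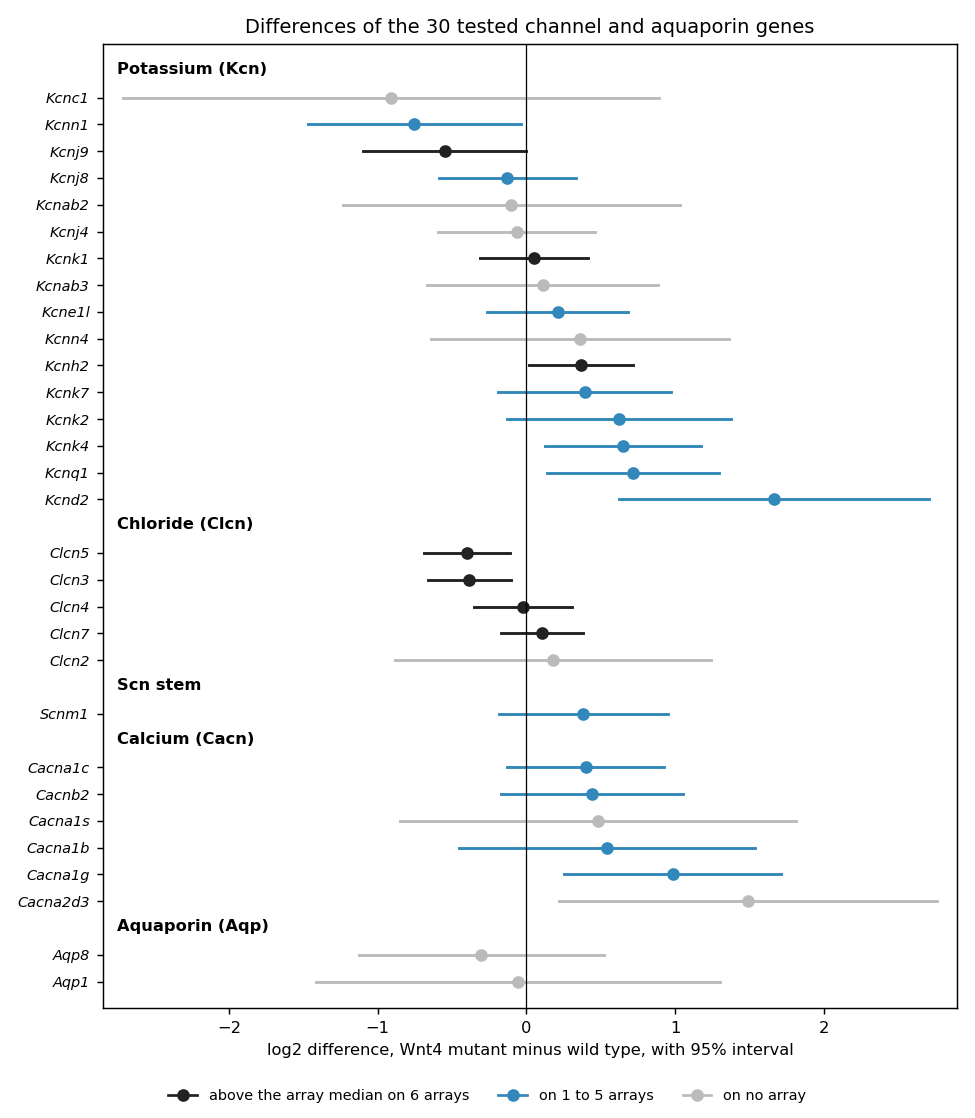
Log2 difference, mutant minus wild type, of the 30 tested genes with its 95% interval from the fit, by family and coloured by the number of arrays above the median. Intervals are 0.55 to 1.09 log2 units wide for genes above the median on 6 arrays (median 0.66), 0.92 to 2.08 for those on 1 to 5 arrays (median 1.16) and 1.05 to 3.604 for those on none (median 2.20), so the ranges overlap.

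The chloride family was the brightest, and 5 of its 6 genes were tested (median difference -0.02). Clcn5 encodes an endosomal chloride-proton exchanger needed for protein reabsorption in the proximal tubule. Its signals were 803, 719, 722 and 914 on wild-type arrays 1 to 4 and 591 and 594 on the mutant arrays, so both mutant arrays were below every wild-type array. The difference was -0.40 ± 0.13 (95% interval -0.69 to -0.11) and missed the threshold (adjusted p = 0.0818). Clcn3, a related exchanger of endosomes and synaptic vesicles, gave 600.5, 689.9, 639.8 and 715 in the wild type and 533 and 473 in the mutant, again without overlap. Its difference was -0.38 ± 0.12 with an adjusted p of 0.0823. The proximal tubule markers, beside which these genes were set, were lower for 7 of the 9 tested of 10 on the array and higher for 0, with summed signals of 2423 to 3580 in the wild type and 307 to 352 in the mutant. Their part in the Clcn5 and Clcn3 values was not tested.

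At their brightest probe sets the other chloride genes showed no such separation, while further probe sets of Clcn4 and Clcn1 did. Clcn7, the exchanger of lysosomes and of the osteoclast border, gave 493, 473, 454 and 512 in the wild type and 496 and 546 in the mutant. The groups overlapped, and the 95% interval of the difference, -0.17 to 0.38, was the narrowest among the 30. Clcn4, another endosomal exchanger, ranged from 339.7 to 439.9 in the wild type and gave 385 and 375 in the mutant, within that range (interval -0.35 to 0.31). Clcn2, a plasma membrane channel, was dim and spread widely, with 129.7, 51.4, 112 and 45.6 in the wild type and 80.1 and 102 in the mutant (interval -0.88 to 1.25). Clcn1, the chloride channel of skeletal muscle, was not tested, with wild-type signals between 24.3 and 145 and mutant signals of 88.6 and 32.7. Its further, dimmer probe set gave 24.8 to 48.3 in the wild type and 8.35 and 10.95 in the mutant, without overlap (-1.03).

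Among the 14 pore-forming voltage-gated potassium channels, 4 were tested and 3 of them had both mutant arrays above the wild-type range, as had 19.3% of all genes tested. Kcnd2 encodes Kv4.2, which carries a fast inactivating potassium current in neurons and heart. It gave 81.8, 56.9, 40.6 and 23.4 in the wild type and 162 and 209.9 in the mutant, with means of 50.6 ± 24.9 (SD, n = 4) and 186 ± 34.1 (SD, n = 2). The difference was 1.67 ± 0.46 (interval 0.63 to 2.71), the largest of the 30, and its adjusted p of 0.0515 lay just over the threshold. All 4 wild-type signals were under the 40th percentile, so Kcnd2 entered the test only through the mutant arrays, where it was high, and it was not tested when either of them was left out. Only mutant array 2 was above its array's median. A second Kcnd2 probe set, too dim for the filter, gave 27.8, 20.5, 19.1 and 22.4 in the wild type and 79.8 and 103 in the mutant, without overlap and with a difference of 1.48. With no filter that second probe set had an adjusted p of 0.0386 while the brighter one had 0.0596, against 6.8% of all genes called. The call for the brighter Kcnd2 probe set changed with the settings: it passed with an offset of 64 (adjusted p = 0.0301), without the variance trend (0.0441), with array weights (0.0292), with probe sets averaged (0.0461) and under a 35th percentile filter (0.0454). Under these settings 11.9%, 7.65%, 18%, 11.2% and 10.7% of all genes were called. Marker lists of nerve and of skeletal muscle are given with the calcium channels, and there was no list for heart.

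Kcnq1 encodes a slowly activating channel that works with the subunit Kcne1 in heart, inner ear and epithelia. Its signals were 164, 205, 185 and 117 in the wild type and 327 and 241 in the mutant, both above the wild-type range (0.72 ± 0.25, adjusted p = 0.110). A second, dimmer Kcnq1 probe set went the other way (-0.67), with 28.4 to 92.1 in the wild type and 48.5 and 14.0 in the mutant. Kcnh2 encodes the channel of the rapid delayed rectifier of the heart, hERG. It gave 449.6, 428, 442 and 329 in the wild type and 538 and 529 in the mutant, also above the wild-type range (0.37 ± 0.15, adjusted p = 0.166). Kcnc1, a channel of fast-firing neurons, had 23.8, 108, 16.4 and 120.3 in the wild type and 22.0 and 18.8 in the mutant. Its wild-type arrays formed a bright and a dim pair, and the interval, -2.71 to 0.89, was the widest of the 30.

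Of the 10 untested voltage-gated genes, Kcna2 alone had both mutant arrays outside the wild-type range, with signals of 16.5 to 30.0 in the wild type and 70.3 and 65.7 in the mutant. It was chosen for mention after its values were seen.

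The Kcnk genes, which encode channels with a pair of pore domains that set the resting potential, mostly passed the filter, with 4 of 5 tested (median difference 0.51). Kcnk1 (TWIK-1) was above the median on all 6 arrays, with 547, 577, 417 and 559 in the wild type and 498 and 586 in the mutant. The mutant values lay on both sides of the wild-type mean of 525, and the difference was 0.05 ± 0.16 (interval -0.31 to 0.41). Kcnk4 (TRAAK), a channel opened by membrane stretch, gave 229.7, 139.7, 205 and 193 in the wild type and 351 and 266 in the mutant, without overlap (0.65 ± 0.23, adjusted p = 0.111). Kcnk2 (TREK-1), its close relative, gave 105, 194, 92.7 and 124 in the wild type and 256 and 157 in the mutant, and here the groups overlapped because wild-type array 2 was above mutant array 2 (0.63 ± 0.33, adjusted p = 0.275). The Kcnk2 difference was 0.30 without mutant array 1 and 0.95 without mutant array 2. Kcnk7 gave 125 to 203 in the wild type and 179.9 and 236 in the mutant, also overlapping.

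The inward rectifiers, which pass potassium more readily into the cell, were seldom bright enough for the filter, with 3 of 11 tested. Kcnj1 encodes ROMK, the channel through which the thick ascending limb and collecting duct return potassium to the urine. Its signals were 109.53, 74.97, 99.56 and 100.80 in the wild type and 28.59 and 10.01 in the mutant, without overlap, but it was above the 40th percentile (101.12 to 110.40 over the arrays) on no array and was not tested. On wild-type array 1 the percentile was 109.54, only just above its signal. With no filter its difference was -1.71 ± 0.38 (adjusted p = 0.0348), the only one of 73 genes called, which is 1.37% against 6.8% of all 8251 genes (3.72% lower). Without the filter 16 of the 73 genes (21.9%) had both mutant arrays outside the wild-type range, against 33.3% of all genes. A 35th percentile filter, chosen after these values were seen, called it again (adjusted p = 0.0400), against 10.7% of all genes. The second Kcnj1 probe set was dimmer, with signals between 10.7 and 40 in the wild type and 10.5 and 3.97 in the mutant, also without overlap (-0.79). The markers of loop and distal tubule, where Kcnj1 is known to be expressed, were lower for 4 of the 6 tested of 8 on the array and higher for 0. Their summed signals were 4290 to 5782 in the wild type and 2551 to 2770 in the mutant. Pvalb and Slc12a3 of that list had both mutant arrays above the wild-type range. The ureteric bud and collecting duct markers were lower for 2 and higher for 4 of the 11 tested. Calb1 (-0.61, adjusted p = 0.00539, limma) stands in both lists and is counted as lower in each. The part of either list in the Kcnj1 values was not tested.

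The promoter windows of Kcnj1 and Kcnd2 are shown because these genes had the lowest and the highest difference of the 73, each with a second probe set of the same sign. They are RefSeq sequences of GRCm38.p6, 250 bases before to 50 after the gene start, chr9:32393735-32394034 on the plus strand for Kcnj1 and chr6:21215096-21215395 on the plus strand for Kcnd2. Capitals mark the letters GTTAAC, a half-site of the tubule factor HNF1, searched on both strands together with GTTAAT and with CTTTGAT, the letters bound by TCF/LEF.
Kcnj1: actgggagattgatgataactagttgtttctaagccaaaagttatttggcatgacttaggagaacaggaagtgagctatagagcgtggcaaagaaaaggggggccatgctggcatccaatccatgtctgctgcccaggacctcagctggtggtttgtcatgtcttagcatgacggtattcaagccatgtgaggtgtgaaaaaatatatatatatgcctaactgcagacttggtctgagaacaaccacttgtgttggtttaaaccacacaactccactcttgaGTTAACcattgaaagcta
Kcnd2: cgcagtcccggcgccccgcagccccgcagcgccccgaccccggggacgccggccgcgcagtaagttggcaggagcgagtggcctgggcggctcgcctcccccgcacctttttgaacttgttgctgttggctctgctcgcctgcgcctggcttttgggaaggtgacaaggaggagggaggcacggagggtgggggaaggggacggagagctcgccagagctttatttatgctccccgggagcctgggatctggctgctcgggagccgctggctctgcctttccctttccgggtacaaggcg
GTTAAC lay 33 bases after the Kcnj1 start and reads the same on both strands. The Kcnd2 window held none of the 3 motifs. Windows were found for 57 of the 73 genes (76 windows). GTTAAC was in 1 of them (1.3%, against 3.1% of 32851 windows of all genes), GTTAAT in 2 (2.6% against 7.1%) and CTTTGAT in 3 (3.9% against 3.7%), which were windows of Clcn3, Clcn5 and Kcnk2. A match here is a run of letters, not a binding site.

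Of the 3 inward rectifiers tested, only Kcnj9 had both mutant arrays outside the wild-type range, and its probe sets disagreed in sign. Kcnj9, a subunit of the G-protein-gated potassium channels, gave 243, 427, 244 and 305 in the wild type and 211 and 185 in the mutant, below every wild-type array (-0.55 ± 0.24, adjusted p = 0.186). Without wild-type arrays 2 and 4 the difference was -0.28. Its second probe set pointed the other way (0.69, adjusted p = 0.468), with 25.9, 119, 57.1 and 111 in the wild type and 152 and 96.0 in the mutant. Kcnj8, the pore of the ATP-sensitive channel of vascular smooth muscle, gave 199, 266, 218 and 186 in the wild type and 188 and 204 in the mutant, inside the range of the wild type (interval -0.59 to 0.33). Smooth muscle had no marker list. The endothelial markers, the only vascular list, were lower for 5 of the 11 tested of 12 on the array and higher for 0. They summed to 8278 to 8774 in the wild type and 5845 to 6005 in the mutant. Kcnj15, found in kidney epithelium, was not tested, and its wild-type signals of 95.9, 14.45, 8.43 and 43.5 enclosed the mutant values of 15.3 and 51.3. Kcnj6, chosen for mention after its values were seen, had both mutant arrays below the wild-type range, with 81.1 to 91.5 against 77.9 and 15.7.

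Of the 4 genes with the stems Kcnn, Kcnma and Kcnu, 2 were tested, both calcium-activated channels. Kcnn1 (SK1) was above the array median on 5 of 6 arrays, with 251.1, 355, 325 and 196 in the wild type and 225 and 108 in the mutant. Mutant array 1 lay inside the wild-type range (-0.75 ± 0.32, adjusted p = 0.168). Leaving out mutant array 1 or 2 moved the difference to -1.23 or -0.27, so it rests largely on mutant array 2. Kcnn4 (the intermediate-conductance channel of blood cells and epithelia) gave 47.5, 167, 149.7 and 155 in the wild type and 139.8 and 176 in the mutant, with wild-type array 1 far below the rest (0.36 ± 0.44, adjusted p = 0.661). Without that array the difference was 0.0005, and without wild-type arrays 2 and 4 it was 0.76. Of the 8 auxiliary potassium channel genes, 3 were tested. Kcne1l (also known as Kcne5) gave 167 to 233 in the wild type and 217 and 215 in the mutant. Kcne1, the partner of Kcnq1, was not tested, with 58.0, 93.7, 97.5 and 67.8 in the wild type and 38.8 and 90.5 in the mutant.

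**Figure D3:**
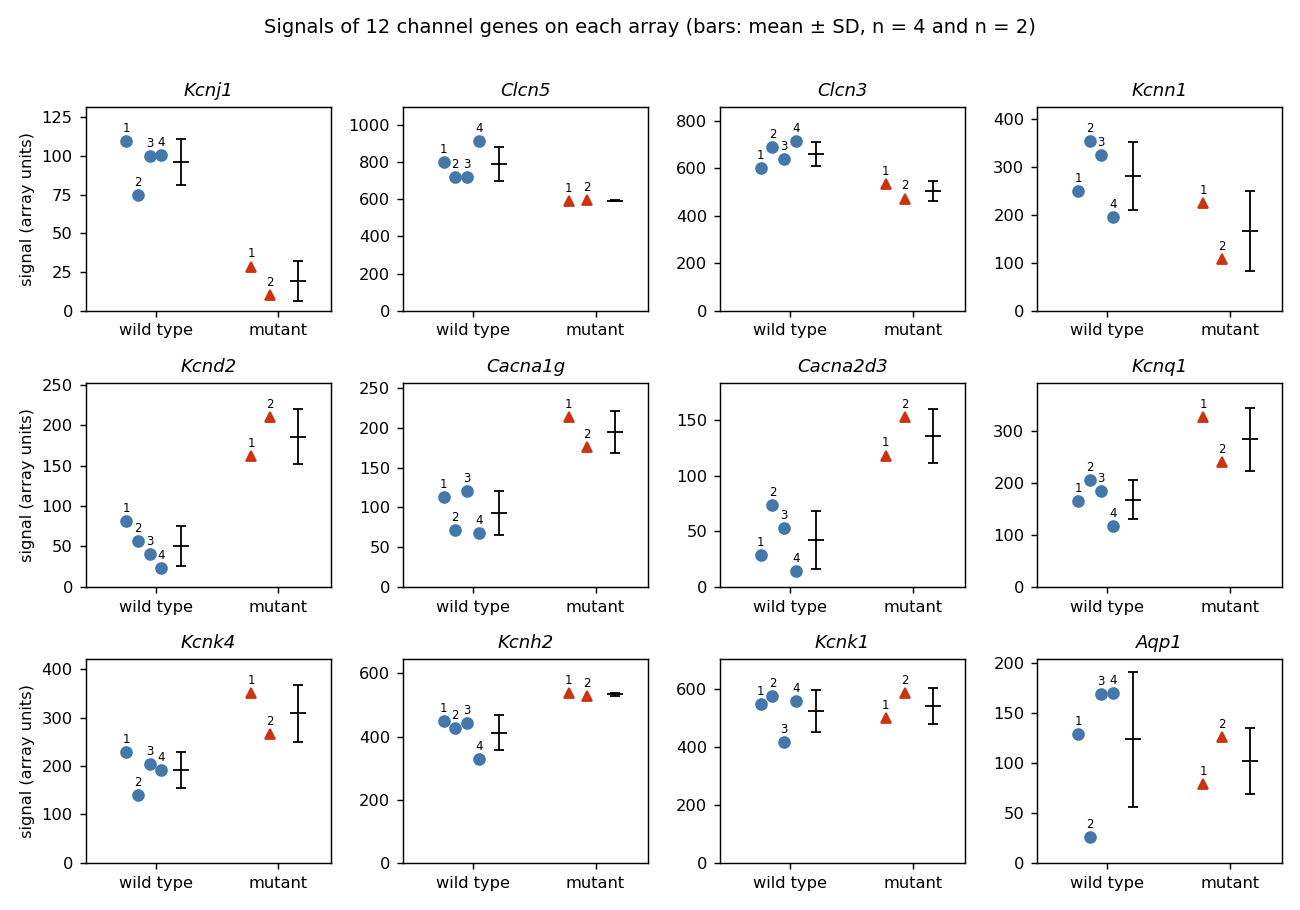
Signal of 12 channel genes on each array (linear axis from 0), with points numbered by replicate and bars giving the mean and SD (n = 4 wild type, n = 2 mutant). The mutant points of Kcnd2, Cacna1g and Kcnq1 lie above all wild-type points and those of Clcn5, Clcn3 and Kcnj1 below them.

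Of the 12 calcium channel genes, 6 were tested and none passed. The 6 tested had positive differences (median 0.51), but the filter can admit a gene through the mutant arrays alone. Among the 6 untested, 4 were positive and 2 negative. The negative ones were Cacna2d1, with 46.3 to 92.1 in the wild type and 10.4 and 73.7 in the mutant, and Cacna1h, with 15.6 to 107 in the wild type and 38.8 and 32.2 in the mutant. Cacna1g encodes Cav3.1, a T-type channel that opens at low voltage. It gave 113, 71.2, 120.2 and 67.7 in the wild type and 214 and 177 in the mutant, without overlap (0.98 ± 0.32, interval 0.25 to 1.71, adjusted p = 0.0876). Cacna2d3, an auxiliary subunit that brings calcium channels to the membrane, gave 28.4, 73.6, 52.8 and 13.9 in the wild type and 118 and 153 in the mutant, also without overlap (1.49 ± 0.56, adjusted p = 0.128), and it too entered the test only through the mutant arrays. Cacna1b, the pore of the N-type channel of nerve endings, gave 51.4, 175, 188 and 165 in the wild type and 198.9 and 199 in the mutant, above the wild-type range by a small margin. Cacna1c, the L-type channel of heart and smooth muscle, gave 192, 222, 176 and 163 in the wild type and 317 and 199.6 in the mutant, with mutant array 2 inside the wild-type range. Cacnb2, a cytoplasmic subunit, gave 114 to 157 in the wild type and 238 and 149 in the mutant, with the same overlap at mutant array 2. Cacna1s, the L-type channel of skeletal muscle, gave 80.4, 144, 76.4 and 20.0 in the wild type and 78.1 and 133 in the mutant (0.48 ± 0.59, adjusted p = 0.661). Without wild-type array 4 its difference was 0.071. Cacng1, its muscle-specific subunit, was not tested, with 7.23 to 61.0 in the wild type and 23.7 and 68.7 in the mutant.

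Markers of skeletal muscle and nerve were measured beside these genes, without a list for heart or smooth muscle. Skeletal muscle markers were higher in the mutant for 5 of the 11 tested of 19 on the array and lower for 0, with a median difference of 1.36 and summed signals of 1936 to 2766 in the wild type and 6182 to 6706 in the mutant. Nerve and chromaffin cell markers passed for 0 of the 7 tested of 14 on the array (median 0.30), and their summed signals were 3829 to 4433 in the wild type and 4650 to 5332 in the mutant, without overlap. Stromal markers were higher for 9 of the 10 tested of 10 and lower for 0 (median 1.19), with sums of 11170 to 12370 and 26110 to 26230. No marker of any list was at 0 on any array. The part of these cell types in the Kcnd2, Cacna1g, Cacna2d3 and Cacna1c values was not tested.

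None of the 6 pore-forming sodium channels was tested, and all of their signals were 83.9 or lower. Scn1a and Scn9a, chosen for mention after their values were seen, had both mutant arrays above the wild-type range. Scn1a, a channel of brain neurons, gave 2.99 to 22.3 in the wild type and 41.1 and 72.7 in the mutant, while its second probe set did not follow (-0.03). Scn9a, a channel of sensory and sympathetic neurons, gave 2.08 to 5.72 in the wild type and 11.2 and 48.4 in the mutant. Signals this low lie under the 40th percentile of every array. Scnm1, the splicing factor, gave 156, 148, 107 and 178 in the wild type and 185 and 205 in the mutant, without overlap.

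Aquaporins were dim on every array, and 2 of 6 were tested. Aqp1, the water channel of proximal tubule and descending thin limb, gave 129, 26.3, 169 and 169.7 in the wild type and 78.9 and 125 in the mutant, with wild-type array 2 far below the rest. The difference was -0.06 ± 0.60 with an interval of -1.42 to 1.30, which takes in a change of 2-fold either way. Its sign depended on the arrays used, from -0.56 without wild-type array 2 to 0.23 without mutant array 1. Aqp8, known from gut, testis and pancreas, gave 152, 130.2, 91.9 and 78.2 in the wild type and 69.6 and 105 in the mutant, with overlap (-0.30 ± 0.36, adjusted p = 0.656). Aqp2, the vasopressin-regulated channel of the collecting duct, was not tested, with 102, 147, 51.8 and 93.4 in the wild type and 40.3 and 80.5 in the mutant. With no filter its difference was -0.57 with an adjusted p of 0.562. Aqp4, the basolateral water channel of the collecting duct, ranged from 7.84 to 73.7 in the wild type and gave 30.9 and 39.0 in the mutant, and Aqp7, a glycerol-permeable channel of the late proximal tubule, ranged from 15.96 to 93.6 and gave 68.1 and 24.8. The ureteric bud and collecting duct markers were lower for 2 and higher for 4 of the 11 tested of 12 on the array, with sums of 12260 to 13150 in the wild type and 13440 to 13520 in the mutant.

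Genes with several probe sets allowed a second reading of 19 genes. Of their 21 further probe sets, 10 had the same sign of difference as the brightest and 11 the opposite sign, so 47.6% agreed, against 56.9% of 2582 further probe sets over all genes. The further probe sets were dimmer by 1.05 to 14.1 times (median 3.48). Kcnd2, Kcnj1 and Clcn5 had further probe sets of the same sign. For Clcn5 the further probe set was dim and its groups overlapped, with 137, 89.9, 24.8 and 146 in the wild type and 27.2 and 87.7 in the mutant (-0.61, adjusted p = 0.615). Clcn3 had 3 further probe sets, and 1 of them lay below the wild-type range on both mutant arrays, with 272, 216, 171 and 243 against 144 and 152 (-0.54, adjusted p = 0.166), while the others gave 0.09 and 0.10. Clcn4 had a further probe set nearly as bright as the first, with 397, 305, 320.3 and 294 in the wild type and 429 and 465 in the mutant, above the wild-type range (0.43, adjusted p = 0.123) where the brightest showed overlap. Clcn7 gave -0.80 at its further probe set (adjusted p = 0.351) against 0.11 at the brightest.

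**Figure D4:**
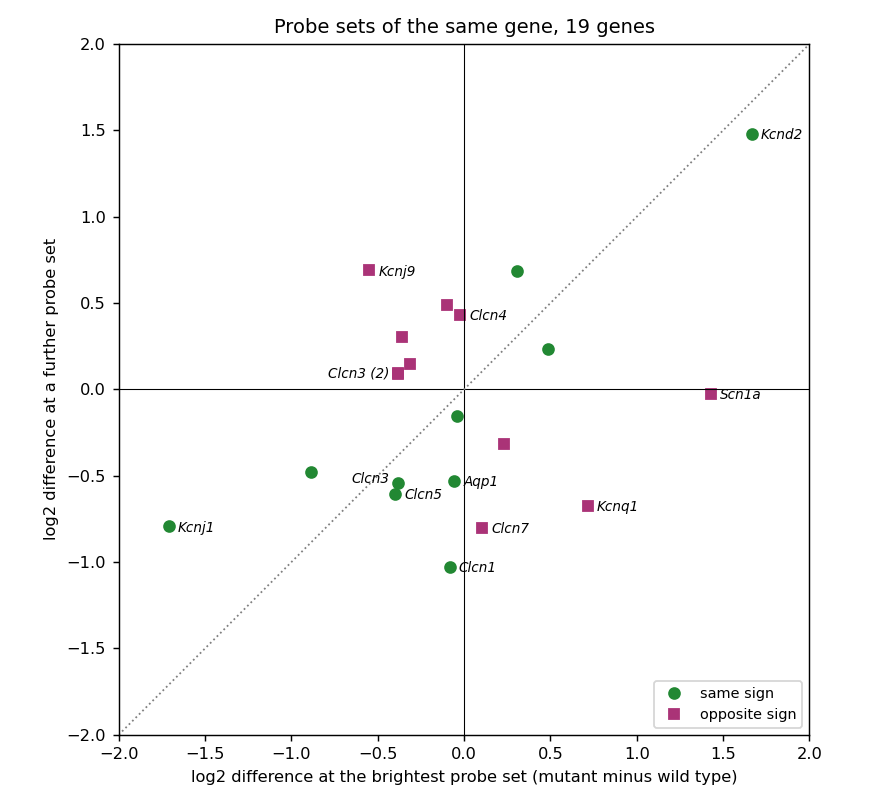
Log2 difference, mutant minus wild type, at the brightest probe set of a gene (horizontal) and at each further probe set of the same gene (vertical), for 19 genes, with the dotted line marking equal differences. Kcnd2 and Kcnj1 lie in the corners of same sign, and 11 of the 21 points lie in the quadrants of opposite sign.

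Other channel genes outside the 5 symbol stems were measured from a fixed list. Of 30 on the array, 16 were tested, 2 were lower, 1 was higher and 13 did not pass, with a median difference of 0.01. Of all genes tested, 11.5% were called. Cftr, the cyclic AMP-gated chloride channel of epithelia, fell from 309, 248, 309 and 205 in the wild type to 126 and 123 in the mutant (-0.999, adjusted p = 0.0223). Clic4, an intracellular chloride channel family protein, fell from 4723 to 5324 in the wild type to 3631 and 3454 (-0.52, adjusted p = 0.00537). Fxyd1 (phospholemman, a regulator of the sodium pump in muscle and heart) rose from 447, 444, 333 and 408 to 906 and 816 (1.06, adjusted p = 0.00241). Fxyd1 stayed past the threshold with any array left out. Clic4 missed the threshold without mutant array 1 (-0.56, adjusted p = 0.0503) or 2 (-0.48, 0.0897) and with probe sets averaged (-0.29, 0.0584). Cftr missed it without wild-type array 1 (-0.927, adjusted p = 0.0638) or 3 (-0.928, 0.0592) and without mutant array 1 (-1.01, 0.122) or 2 (-0.98, 0.139), its difference moving little. Of all genes, 7.7% to 13.6% were called with a wild-type array left out, and 11.2% with probe sets averaged. With a mutant array left out that group has 1 array, which the fit assumes to vary like the wild type. Of the regulators of renal channels, 23 were on the array, 19 were tested and 0 passed in either direction (limma). At an unadjusted p under 0.05, which 28.2% of all genes tested had, there were 3 lower and 1 higher of the 19. Among them, Sgk1, a kinase that raises sodium channel activity under aldosterone, gave 605, 548, 799.9 and 562 in the wild type and 370.0 and 449 in the mutant, without overlap (-0.59, adjusted p = 0.0635). It passed after quantile normalization (0.0489), median centring (0.0481), with array weights (0.0243) and without wild-type arrays 2 and 4 (0.0383). Under these settings 12.1%, 10.2%, 18% and 12.3% of all genes were called. Cab39, a scaffold of the kinases that act on salt cotransporters, had a difference of -0.35 (adjusted p = 0.0596). Cab39 passed with the 60th percentile filter (0.0428), with array weights (0.0235) and without wild-type arrays 2 and 4 (0.0482). There 16.2%, 18% and 12.3% of all genes were called.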

How the data were processed

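Per the submitters' processing notes, the authors used the Affymetrix software GCOS to compute the deposited intensity of each probe set, a linear signal. No source used here states the version or the background step. The arrays were already scaled to a common level and were used as deposited. Probe sets were named from GEO's platform annotation and from RefSeq (GRCm38.p6), which matched 10817 of 10833 single-symbol probe sets and changed no symbol. Probe sets above their array's 40th percentile on at least 2 arrays were kept (7981). Differences were computed on log2(signal + 16), which understates changes of dim genes, with limma 3.58.1 under R 4.3.3 (lmFit, eBayes with trend), Benjamini-Hochberg adjustment and a threshold of 0.05, and were tested on simulated data. The members and lists were chosen with earlier results of these data known. Named genes were the 5 lower and 5 higher with the smallest adjusted p, the 10 brightest and 29 fixed genes, of which 20 were measured. Other members are given by signal. The alternatives were other offsets, filters, scalings, variance models, array weights, averaged probe sets, a replicate block and arrays left out. The number of arrays limits the precision. A planned search of protein sequences was not run.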

Additional observations from a re-analysis of the deposited data

Results flagged for a closer look

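Of 28 named channel and aquaporin genes, 4 had a wild-type array far from the other 3 on the log2 scale (Dixon's test of the gap against the group's range, at its 95% critical value). Aqp1 was at 26.34 on wild-type array 2. Kcnn4 was at 47.48 on wild-type array 1. Kcnh2 was at 329.25 on wild-type array 4. Kcnk1 was at 416.65 on wild-type array 3. Each is the lowest value of its gene, and the 4 genes name 4 different arrays. Chance alone marks about 1 in 20 such groups.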

How the results depend on the processing

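The 0 lower and 0 higher genes became 1 higher (Kcnd2) with an offset of 64, without the variance trend and with probe sets averaged, and 1 lower (Kcnj1) with no filter. They became 1 lower and 1 higher with array weights (Clcn5 at -0.37, adjusted p = 0.0429, and Kcnd2) and with a 35th percentile filter (Kcnj1 and Kcnd2), which was chosen after the data were seen. The no-filter and 35th percentile settings differ in which genes are tested, which is how Kcnj1 enters, and the cause of the other changes was not tested. All genes called were 18% with array weights, and 4.12% to 13.6% with an array left out. Leaving out each wild-type array in turn gave 0 lower and 0 higher in every case. For Kcnd2 the adjusted p (limma) was then 0.05 to 0.0895, at its lowest on the threshold. Without either mutant array Kcnd2 was not tested. Kcnj1 was below the main filter on every array, so it could not be called with any array left out. The zeros therefore say nothing about Kcnj1. With each of the wild-type and mutant arrays left out in turn, the median difference was 0.14 to 0.39. That median was -0.20 over the 8 genes above a 60th percentile filter.

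Of 21 named genes tested, 14 kept their direction under every alternative in which they were tested. For 4 of these (Clcn3, Clcn5, Kcnh2 and Kcnn1) that was all 18 alternatives, for Kcnd2 15, and for the others at least 14. The filter settings and the fit without the variance trend leave a gene's difference as it is, so they could not change a direction. With probe sets averaged, Clcn4 (0.21), Clcn7 (-0.35) and Kcnj9 (0.071) reversed. Leaving out an array moved Aqp1 between -0.56 and 0.23, Clcn4 between -0.080 and 0.039, Kcnk1 between -0.062 and 0.17 and Clcn2 between -0.021 and 0.33. Clcn2 was -0.36 without wild-type arrays 2 and 4.

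The wild-type and mutant arrays share only replicate numbers 1 and 2, and their deviations did not go together (correlations 0.003 and -0.015). With the replicate number as a block, 0 genes were lower and 0 higher (9.13% of all genes called), the median difference was 0.11, Kcnd2 had an adjusted p of 0.221, and Aqp1 (0.56), Cacna1s (-0.072) and Kcnk1 (-0.054) reversed.

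Against a median over 1 probe set per gene, 7 genes were above it in either genotype, and against one over single-symbol probe sets 9 in wild-type and 10 in mutant kidneys, so the counts above the median depend on which probe sets set it. Signal over background limits the dim genes most.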
